A study of Rattus norvegicus with 2 samples.

Results

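The genes described here are those of the Mas receptor and of the renin-angiotensin system in the basilar artery of the rat, the vessel that carries blood to the brain from the vertebral arteries. The list held 7 genes, Mas1, Mas1l, Agtr1a, Agtr1b, Agtr2, Ace and Agt, of 15037 genes that had a named probe set on the array. It was selected on earlier results of these same arrays, since Mas1 had the lowest value of ligation against sham, so the differences below are a description and none of them is a test. A probe set is the group of short probes that reads the RNA of a gene, and 6 of the 7 genes had 1 each. Ace, the enzyme that converts angiotensin I to angiotensin II, had no probe set under its symbol in the annotation used here, and no value is given for it.

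Ligated and sham-operated male Sprague-Dawley rats were compared, each group on 1 Clariom S array. The Ligation array held RNA pooled in equal amounts from 4 rats whose common carotid arteries had both been tied, and the Sham array held RNA pooled from 4 rats whose carotid arteries had only been exposed. The basilar arteries were taken 4 weeks after surgery, from animals aged 13 months in the labels. Since each group is 1 array without a replicate, no value carries an SD, a p-value or a check against a second pool, and precision is limited by this small number of arrays.

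The renin-angiotensin system makes small peptides from a precursor, angiotensinogen. Proteases, angiotensin-converting enzyme among them, cut it to angiotensin II, which contracts arterial smooth muscle through the AT1 receptor. Other peptidases remove a further residue to give angiotensin-(1-7), a peptide known to act through the Mas receptor and to relax vessels, and the AT2 receptor is likewise known to oppose AT1. Mas is a G protein-coupled receptor, first found as an oncogene, and it gave its name to a family of related receptors.

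Signals are the authors' linear intensity values. Differences are on the log2 scale, Ligation minus Sham, so that a value of -1 stands for a signal at 0.5 times that of the sham artery. The arrays carried 23 antigenomic probe sets, designed to match no transcript of the rat, which give the level of background. Their signals lay between 8.58 and 157 on the Ligation array and between 9.14 and 151 on the Sham array. A gene is called above background where its signal was over the brightest of them on at least 1 array, which held for 7751 of the 15037 named genes.

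Both genes of the Mas type were lower after ligation, and both were above background on both arrays. Mas1, the receptor of angiotensin-(1-7), had a signal of 351 on the Ligation array and 4736 on the Sham array. The difference was -3.75, or 13.5-fold lower, which was place 1 among 15037 named genes counted from the lowest. The Ligation signal of Mas1 was still 2.24 times the brightest antigenomic probe set on its array, and the Sham signal was 31.4 times the brightest on the other.

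Mas1l, a gene related to Mas1 that RefSeq also lists as Mrgprh, had a signal of 6832 on the Ligation array and 50869 on the Sham array. The difference was -2.90, or 7.45-fold lower, in place 4 from the lowest. Its signals were 43.6 times the brightest antigenomic probe set after ligation and 337 times after sham surgery, and both lay far below the highest signal, 999963 on the Ligation array and 998298 on the Sham array. The fold of Mas1l therefore hardly depended on the level of background. After the brightest antigenomic signal of each array was taken off, a setting added once the values had been seen, it was 7.60-fold lower, whereas Mas1 was 23.6-fold lower, and with the antigenomic median taken off Mas1 was 19.1-fold lower. How far the probes of the related receptors read each other's RNA was not tested.

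**Figure D1:**
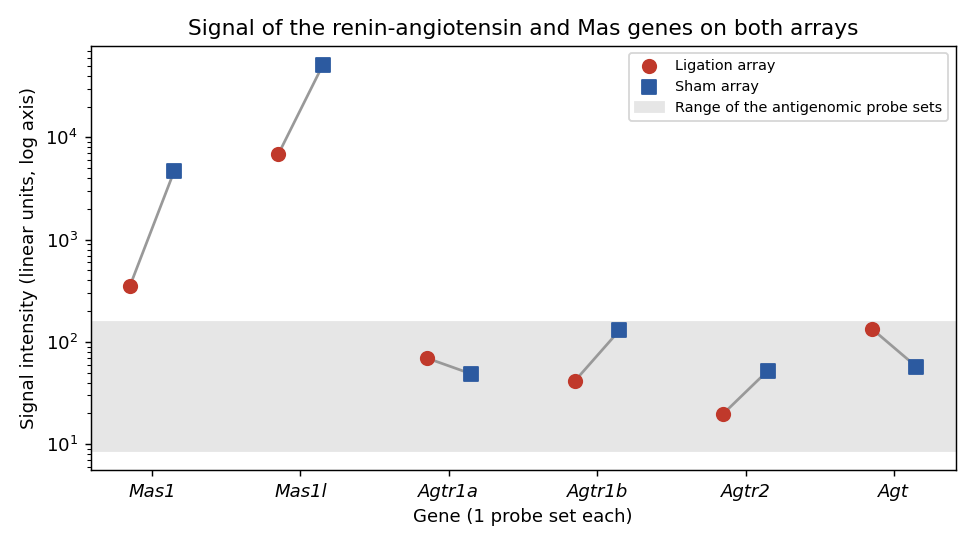
Signal intensity in linear units on a log axis for each of the 6 genes with a probe set, with the Ligation array as circles at the left, the Sham array as squares at the right, and the range of the antigenomic probe sets of both arrays shaded. Mas1 (351 on the Ligation array, 4736 on the Sham array) and Mas1l (6832 on the Ligation array, 50869 on the Sham array) lie above the shaded range on both arrays, and the other 4 genes lie inside it on both.

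Mas1 and Mas1l are neighbours on chromosome 1 of the rat. In the RefSeq annotation of the assembly GRCr8 no other gene was annotated between them, Mas1 lies on the plus strand and Mas1l on the minus strand, and they are transcribed away from each other. The 250 bases before the start of each gene are shown because both genes were lower together. The sequences are those of RefSeq on GRCr8, at chr1:50427840-50428089 for Mas1 (plus strand) and chr1:50421219-50421468 for Mas1l (minus strand), each written 5′ to 3′ as its own gene reads. Capitals mark the motifs searched for, on both strands.
Mas1: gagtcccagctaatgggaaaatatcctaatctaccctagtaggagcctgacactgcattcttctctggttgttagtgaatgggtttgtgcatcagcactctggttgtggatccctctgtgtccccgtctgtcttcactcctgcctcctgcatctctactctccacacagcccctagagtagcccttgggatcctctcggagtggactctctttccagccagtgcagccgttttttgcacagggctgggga
Mas1l: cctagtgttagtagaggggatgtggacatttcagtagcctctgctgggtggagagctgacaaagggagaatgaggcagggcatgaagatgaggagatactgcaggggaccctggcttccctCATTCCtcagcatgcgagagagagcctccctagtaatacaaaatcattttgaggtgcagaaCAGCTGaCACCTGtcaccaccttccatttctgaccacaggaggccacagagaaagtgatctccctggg

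The motifs were the CArG box, which serum response factor binds in many smooth muscle genes, the E-box (CANNTG), the MCAT core (GGAATG), which TEAD factors bind, and the TATA box (TATAAA). No match to any of them was in the Mas1 window. The Mas1l window held 2 E-boxes, CAGCTG starting 68 bases before the start and CACCTG starting 61 bases before it, and 1 MCAT core, which reads as CATTCC on this strand and starts 129 bases before the start. Among 33469 rat promoter windows of the same length, 65.5% held an E-box, 12.1% an MCAT core, 12.9% a TATA box and 1.497% a CArG box. A match is a match of letters only. The windows had 53.2% G and C for Mas1 and 52.4% for Mas1l, against a median of 51.2% over all windows.

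The measured genes beside this pair had smaller differences. Toward the side of Mas1l, the nearest measured genes were Mrpl18, a protein of the mitochondrial ribosome, with a difference of -0.82, Tcp1, a subunit of the chaperonin that folds actin and tubulin, with -1.17, and Acat2, a thiolase of acetyl-CoA metabolism, with -0.14. Toward the side of Mas1 they were Igf2r, the receptor that clears IGF2 and sorts lysosomal enzymes, with -0.81, and the organic cation transporters Slc22a2 and Slc22a3, with 1.29 and -0.61. Slc22a2 had a signal of 3075 on the Ligation array and 1258 on the Sham array, which is 2.44-fold higher, and Slc22a3 was within background on both. Another 20 annotated genes lay in this stretch without a named probe set, 3 of them protein coding, and are not analysed here. Of 15009 pairs of measured genes that follow each other along a chromosome, 22 (0.147%) had both genes under 0.5-fold, and of the 4621 pairs with both genes above background, 13 (0.281%) did, Mas1l and Mas1 included. Since the pair was chosen for its low values, this is a description.

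**Figure D2:**
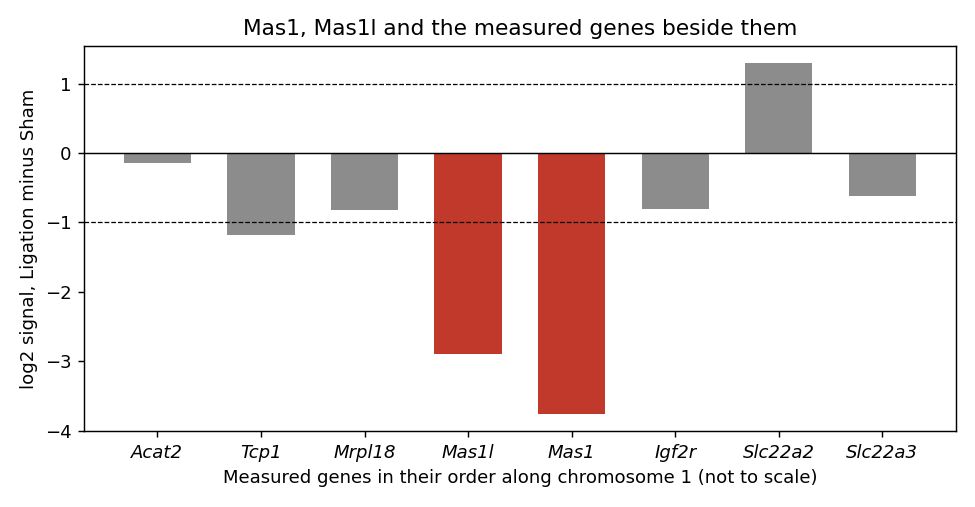
Bars give the log2 signal of Ligation minus Sham for Mas1l, Mas1 and the 3 nearest measured genes on each side, in their order along chromosome 1 and not to scale, with dashed lines at 2-fold in each direction. The bars of Mas1l (-2.90) and Mas1 (-3.75) reach lower than the others, which lie between -1.17 for Tcp1 and 1.29 for Slc22a2.

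The 3 angiotensin receptors of the classical type gave no signal above background on either array, so their log2 differences are differences between signals within background. Agtr1a, which encodes the main AT1 receptor of rodent arteries, had a signal of 69.6 on the Ligation array and 48.7 on the Sham array, a log2 difference of 0.51. Agtr1b, the second AT1 gene of rodents, had 41.6 on the Ligation array and 130 on the Sham array, a difference of -1.64. Agtr1a and Agtr1b encode nearly the same receptor, and how far their probes tell them apart was not tested. Agtr2, the AT2 receptor gene, had 19.9 on the Ligation array and 52.4 on the Sham array, a difference of -1.40.

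The antigenomic probe sets fell into separate ranges, which bears on these 3 receptors. The 11 whose names carry a GC number from 8 to 18 had signals of at most 35.7 on the Ligation array and 44.2 on the Sham array, and the other 12, with lower or higher GC numbers, had signals of at least 109 on both. Agtr1a was brighter than 11 of the 23 on each array. Agtr1b was brighter than 11 after ligation and 19 after sham surgery, and Agtr2 was brighter than 8 after ligation and 11 after sham surgery. The GC content of the probes that read these genes is not given in the sources used here, so the level of background that belongs to each was not determined. A gene within background is not shown to be absent.

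Agt encodes angiotensinogen, the precursor of all angiotensin peptides, which the liver makes for the blood and astrocytes are known to make in the brain. Its signal was 135 on the Ligation array and 57.5 on the Sham array, a log2 difference of 1.23. Both signals were under the brightest antigenomic probe set, and Agt was brighter than 20 of the 23 after ligation and brighter than 11 after sham surgery. On both arrays Agt was brighter than the 11 with GC numbers from 8 to 18, at most 35.7 on the Ligation array and 44.2 on the Sham array. The level of background that belongs to Agt was likewise not determined. Astrocyte markers were higher on the same array. Over all named genes, 48.7% were above 0 and 4.04% were over 2-fold. Of 8 astrocyte markers with a probe set, all were above 0 and 5 were over 2-fold, and Aqp4 and Gfap, which mark astrocytes, had differences of 4.12 and 3.96. Their summed signal was 326299 after ligation and 205205 after sham surgery, mostly from the connexins Gjb6 and Gja1. Without Gjb6, the brightest, it was 92206 after ligation and 46004 after sham surgery. Without both connexins it was 39883 after ligation and 3724 after sham surgery, 10.7 times as high. Most of that Ligation sum was Gfap, at 29760 on the Ligation array and 1908 on the Sham array. The 10.7 is not comparable with sums below that leave out only the brightest gene. The part of astrocyte RNA in the value of Agt was not tested.

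Of the 6 measured genes, 4 had a ratio under 0.5-fold and 1 had a ratio over 2-fold, where 2.97% of all 15037 named genes were under 0.5-fold and 4.04% were over 2-fold. Only 2 of the 6 were above background, and both were under 0.5-fold, where 3.5% of named genes above background were under 0.5-fold and 6.19% were over 2-fold. The genes were chosen by this same difference, so nothing is read from these counts. After 64 was added to every signal before log2 was taken, which damps differences near background, the difference was -3.53 for Mas1 and -2.88 for Mas1l, while Agtr1b, Agtr2 and Agt had differences of -0.88, -0.47 and 0.71 and were no longer past 2-fold.

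**Figure D3:**
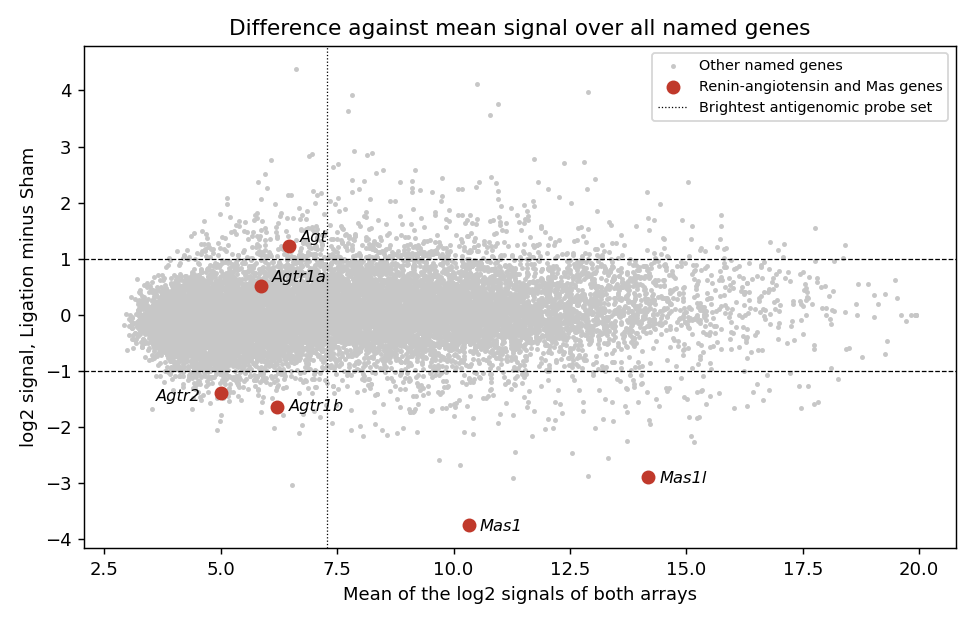
Each grey point is a named gene, with the mean of its log2 signals on both arrays on the horizontal axis and its log2 signal of Ligation minus Sham on the vertical axis. Mas1 (-3.75) and Mas1l (-2.90) lie at the lower edge of the cloud to the right of the brightest antigenomic probe set (dotted line), and Agt, Agtr1a, Agtr1b and Agtr2 lie to its left, with dashed lines at 2-fold.

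Smooth muscle markers were lower on the same arrays, and markers of several other cell types were higher. All 12 smooth muscle markers had a probe set above background, all 12 were below 0 and 7 were under 0.5-fold, with a median of -1.20 and a range from -2.27 for Smtn to -0.10 for Tagln. Among named genes above background, 3.5% were under 0.5-fold and 56.4% were above 0. Acta2 and Myh11, the actin and myosin of smooth muscle that mark the vessel wall, had differences of -0.46 and -1.60. Tagln and Acta2 were near the highest signals of the arrays, where differences can be compressed. The summed signal of the 12 was 2344560 on the Ligation array and 3575290 on the Sham array, a ratio of 0.66. The ratio was 0.56 without Tagln, the brightest, and 0.50 without Tagln and Acta2. Mas1 and Mas1l were chosen for their low values, so nothing is read from how they compare with these 12. In such bulk RNA, fewer cells of a type and less RNA per cell cannot be told apart, and the part of cell composition in these differences was not tested.

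The first 2 markers listed for each cell type were above background on both arrays. Over all named genes, 48.7% were above 0, as were 56.4% of those above background. Of the other cell types, all 11 endothelial markers with a probe set were above 0, with a median of 1.24, and Pecam1 and Cdh5 had differences of 0.81 and 0.57. Markers of fibroblasts and leptomeninges were above 0 for 10 of 10 genes (median 0.59), with Col1a1 at 0.84 and Col1a2 at 0.65. Among these 10, Ptgds had only 0.0024 and was near the highest signals of the arrays, where differences can be compressed. Markers of macrophages and microglia were above 0 for 12 of 12 genes (median 0.75), with Cd68 at 1.06 and Csf1r at 0.94. Of 10 oligodendrocyte and Schwann cell markers 8 were above 0 (median 1.26), with Mbp at 3.76 and Mobp at 3.57. Olig1 at -0.16 and Olig2 at -0.42 were below 0, and both were among the 4 within background on both arrays. The other 6 were all above 0, with a median of 1.69. Pericyte markers lay on both sides, 6 of 9 above 0 with a median of 0.32, Pdgfrb at 0.32, Rgs5 at 1.61 and Vtn at 1.58, against Cspg4 at -1.46 and Notch3 at -1.10. The 12 neuron markers had a median of 0.00, with Rbfox3 at -0.17 and Snap25 at 0.00, and none was past 2-fold. Of these, 5 were within background on both arrays, and the other 7 had a median of 0.40, with 6 above 0 and Stmn2 highest at 0.67. Sums rest on the brightest genes of a list. The summed signal on the Ligation array was 1.86 times that on the Sham array for endothelial markers, 1.16 times for fibroblasts and leptomeninges, 1.48 times for macrophages and microglia, 1.93 times for oligodendrocytes and Schwann cells, 2.05 times for pericytes and 1.11 times for neurons. Without the brightest gene of each list it was 2.55 times for endothelial markers (without Cdh5), 1.36 times for fibroblasts and leptomeninges (without Ptgds), 1.82 times for macrophages and microglia (without Lyz2), 6.46 times for oligodendrocytes and Schwann cells (without Cldn11), 1.38 times for pericytes (without Vtn) and 1.29 times for neurons (without Snap25).

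**Figure D4:**
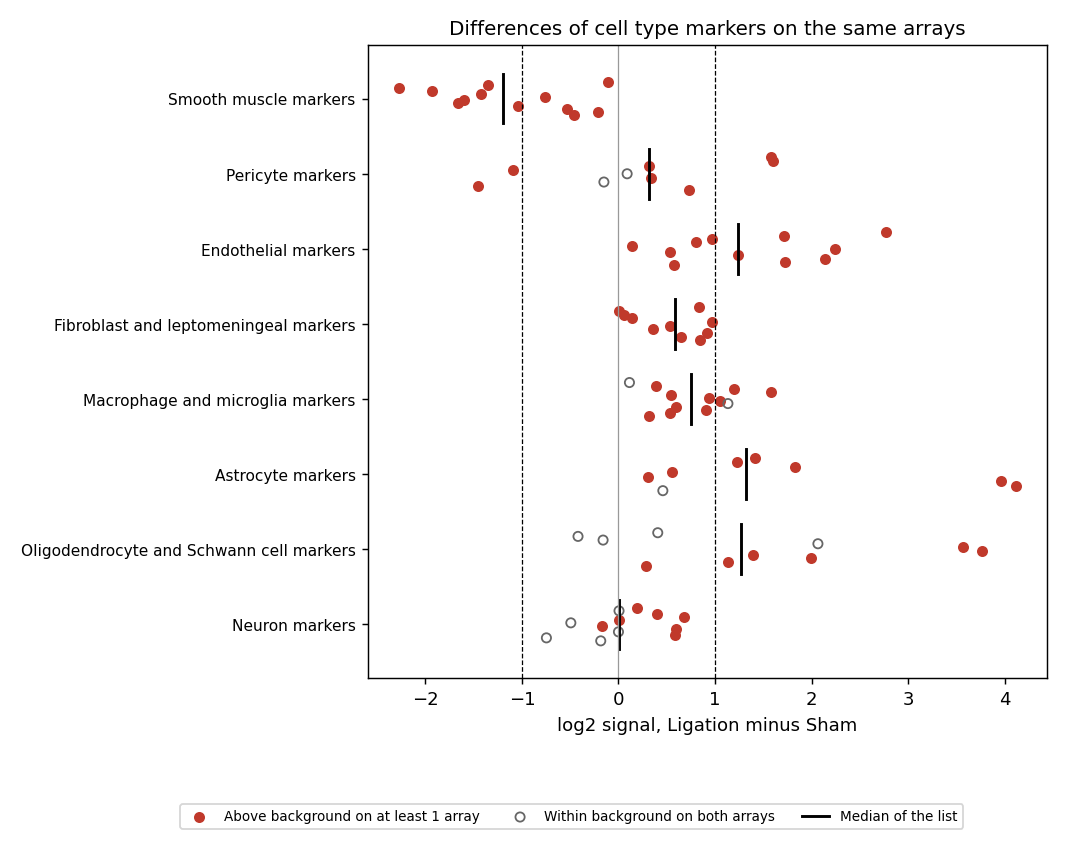
Each point is a marker gene, placed by its log2 signal of Ligation minus Sham, with 1 row for each cell type, filled where the gene was above background on at least 1 array, and with the median of the list as a black bar and 2-fold as dashed lines. Smooth muscle markers lie between -2.27 and -0.10, and all endothelial, fibroblast, macrophage and astrocyte markers lie above 0.

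A wider list of the system held 61 names from 4 lists, on peptidases, receptors and their partners, the Mas-related family and the mineralocorticoid branch, of which 48 had a probe set and 26 were above background. Of the 48, 4 were over 2-fold and 5 were under 0.5-fold, against 4.04% and 2.97% of all named genes, with a median difference of -0.02, against -0.01 over all named genes. Without the genes already described, 3 of 42 were over 2-fold and 1 was under 0.5-fold. That gene was Mrgprb5, within background on both arrays with a difference of -1.02. Above background, 3 of the 24 others were over 2-fold, none was under 0.5-fold, and their median was 0.33. Over the 7751 named genes above background, 6.19% were over 2-fold, 3.5% were under 0.5-fold, and the median was 0.08.

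Of 16 genes with a probe set on the list of peptidases, 11 (68.8%) were above 0, against 48.7% of all named genes, and their median was 0.51. The list also holds enzymes named for other substrates, Ece1 among them. Of the 11 above background, 8 (72.7%) were above 0, against 56.4% of named genes above background. Of these 11, 2 were over 2-fold and none was under 0.5-fold, against 6.19% and 3.5% of named genes above background. Prcp, which cuts angiotensin II to angiotensin-(1-7), had a signal of 1304 on the Ligation array and 488 on the Sham array, 2.67-fold higher. Ece1, the endothelin-converting enzyme, had 27321 on the Ligation array and 12234 on the Sham array, 2.23-fold higher. Enpep, the aminopeptidase that turns angiotensin II into angiotensin III, had a difference of 0.69, and Anpep, which takes the next residue, had 0.79. Of the endopeptidases that can release angiotensin-(1-7) from angiotensin I, Prep had 0.62 and Thop1 had -0.38, the lowest of the list, and Mme (neprilysin) had 0.63 with both signals within background.

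Among receptors and receptor partners, 12 had a probe set and 6 were above background. Of these 6, only Mas1 and Mas1l were past 2-fold, and they were chosen for their low values. Lnpep, the aminopeptidase that binds angiotensin IV, had a signal of 28771 on the Ligation array and 52901 on the Sham array, a difference of -0.88. Agtrap, which binds the AT1 receptor and aids its uptake into the cell, had 0.57, and Mtus1, a partner of the AT2 receptor, had 0.48. Atp6ap2, an accessory protein of the vacuolar proton pump, had 0.08.

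In the Mas-related family, 11 of 12 genes with a probe set were below 0 and 1 (8.3%) was above, against 48.7% of all named genes. The median was -0.60. The 12 include Mas1 and Mas1l, and 7 of the 12 were within background on both arrays. Mrgprf, an orphan receptor of the family, had a signal of 11847 on the Ligation array and 21212 on the Sham array, a difference of -0.84. Mrgpre had 173 on the Ligation array and 282 on the Sham array (-0.70), and Mrgprx3 had 315 on the Ligation array and 224 on the Sham array (0.49). Several Mrgpr genes of the rat are close copies of each other, so values of single genes among them are uncertain. None of these 3 passed 2-fold. Mas1 and Mas1l were chosen for their low values, so nothing is read from how they compare with these 3.

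In the mineralocorticoid branch, through which aldosterone acts, 1 of 10 genes with a probe set was over 2-fold and none was under 0.5-fold (median -0.02). Over all named genes, 4.04% were over 2-fold and 2.97% were under 0.5-fold. Sgk1, a kinase that steroid hormones induce, had a signal of 7323 on the Ligation array and 2979 on the Sham array, 2.46-fold higher. Nr3c2, the mineralocorticoid receptor itself, had a difference of -0.39. Hsd11b1, which regenerates active glucocorticoid, had 0.88, and Tsc22d3, which glucocorticoids induce, had -0.92.

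Of 24 genes with a probe set that act below the AT1 receptor, 4 were under 0.5-fold, 1 was over 2-fold and 19 were between, with a median of 0.15. All 5 were among the 22 above background, where 3.5% of named genes were under 0.5-fold and 6.19% were over 2-fold. Rgs2, which switches off the Gq protein that AT1 uses, had a signal of 1983 on the Ligation array and 5067 on the Sham array, 2.55-fold lower. Itpr1, the receptor of inositol trisphosphate on the calcium store, was 2.21-fold lower, Plcb1, a phospholipase C that Gq activates, was 2.11-fold lower, and the protein kinase Rock2 was 2.10-fold lower. Rgs5, a regulator of G proteins that also marks pericytes, had 18496 on the Ligation array and 6079 on the Sham array, 3.04-fold higher. Gnaq, the Gq subunit itself, had a difference of 0.63, while Gna11, also on this list, had -0.53.

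**Figure D5:**
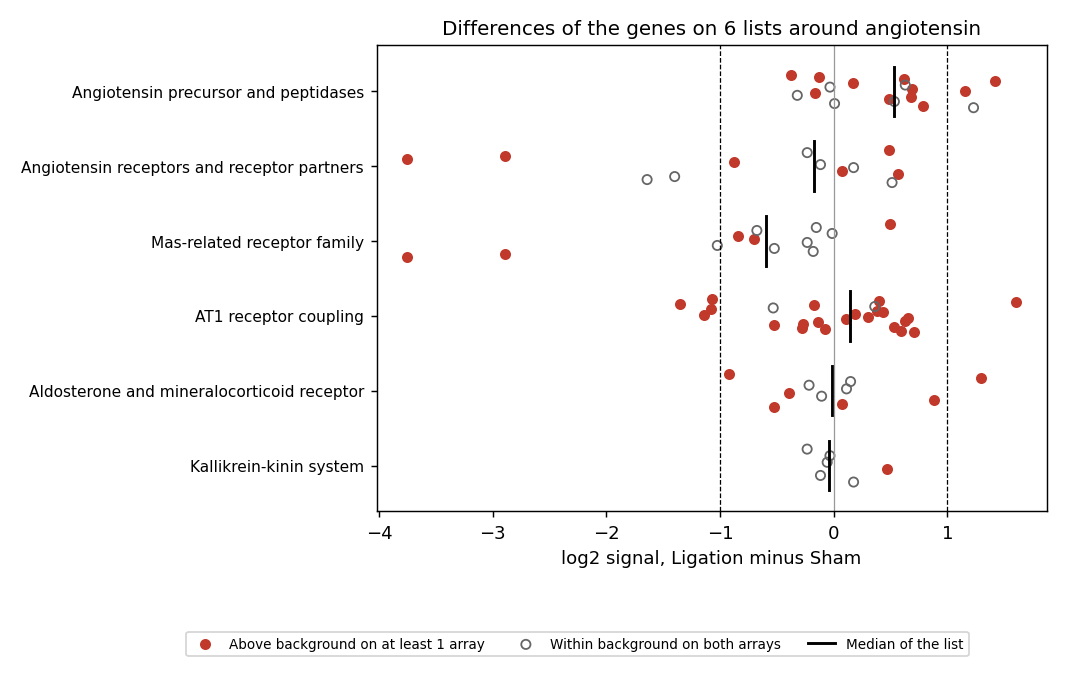
Each point is a gene of 1 of 6 lists around angiotensin, placed by its log2 signal of Ligation minus Sham and filled where it was above background on at least 1 array, with list medians as black bars and 2-fold as dashed lines. Mas1 at -3.75 and Mas1l at -2.90 stand at the left in both lists that hold them, and the list of the precursor and peptidases has a median of 0.53.

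The genes most like Mas1 were taken as those with the shortest distance to it in the plane of both log2 signals. This is a likeness over 2 arrays and carries no statement of shared function. Genes picked in this way have low differences through the choice itself, so nothing is read from their folds. The nearest was the laminin chain Lama5, at a distance of 0.81, with a signal of 443 on the Ligation array and 2842 on the Sham array, 6.42-fold lower. Next were Dgkg, a diacylglycerol kinase (4.35-fold lower), Synm, the intermediate filament protein synemin (4.27-fold lower), the scaffold gene Mpp7 (6.02-fold lower) and the growth factor Fgf7 (3.58-fold lower), at distances of 1.16 to 1.36.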

How the data were processed

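RNA of rat basilar arteries was measured on 2 Clariom S arrays, Ligation and Sham, from 50 ng of pooled RNA each. The deposited values are linear signal intensity per probe set. The submitters' processing notes name Affymetrix Expression Console and RMA without versions, and the genome build is not given in the sources used here. RMA normalizes across arrays, so a shift common to all genes would not be seen. No columns were left out. Depth does not apply to arrays, whose number limits the precision.

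Probe sets were named through the platform annotation, with symbols updated by Entrez identifier against GRCr8. Of 23188 gene probe sets, 15049 received a symbol in this way, which gave 15037 genes. The others had no symbol and are not described here. Log2 was taken, probe sets of a gene were averaged, and Ligation minus Sham was computed with no further scaling. Counts use over 2.0-fold and under 0.5-fold. No test was run, as each group is 1 array. The computation of differences and counts was checked on simulated signals with known shifts.

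The members and lists were chosen with earlier results of these data known. Named genes are the members, genes of each list past 2-fold and above background (otherwise the largest in each direction), the 5 nearest to Mas1, the 3 measured neighbours on each side, and the first 2 markers of each cell type. The same likeness to Ace could not be computed. Further names were chosen after their values were seen. Alternatives were median centring, quantile normalization, housekeeping centring, lowess (fraction 0.3), 64 added to each signal, the brightest probe set per gene, thresholds of 1.5-fold and 3-fold, a background floor, and other background limits. Computation was in Python 3.11.15 (pandas 2.3.3, numpy 2.4.6), lowess was from statsmodels 0.14.6, and figures were drawn with matplotlib 3.10.9.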

Additional observations from a re-analysis of the deposited data

How the results depend on the processing

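As there are no replicates, an SD of 0.36, taken over the differences of 10 housekeeping genes well below the highest signal, stood in for the spread, and counts were compared at 1.5 times. This SD is a spread between genes in 1 comparison and does not measure the spread of a gene between pools. Of 84 values under the alternatives, 67 stayed within these limits, 17 moved and 0 changed sign while past 2-fold. The brightest probe set rule could move no value, since the 6 measured genes and the 48 of the wider list had 1 probe set each. Its values count among the 67. Over the scalings and the offset, the difference lay between -3.83 and -3.53 for Mas1 and between -3.05 and -2.88 for Mas1l. With the antigenomic median or the brightest antigenomic signal taken off, both added after the data were seen, Mas1 had -4.26 and -4.56 and Mas1l had -2.92 and -2.93. Adding 64 to each signal left 0 of the 6 measured genes over 2-fold and 2 under 0.5-fold, and 2 of the wider list under 0.5-fold. Keeping only genes above background gave 0 and 2 for the measured genes and 2 under 0.5-fold in the wider list, because fewer genes were counted. At 1.5-fold, 10 genes of the wider list were higher and 10 lower. At 3-fold, 0 of the measured genes were higher, and 0 of the wider list were higher and 3 lower. With the antigenomic median as the limit, 4 of the 6 measured genes were above background. No paired analysis was possible because each group is 1 array, and for the same reason no array could be left out.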

Other observations

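The kallikrein-kinin system, whose peptides are broken down by the same converting enzyme, was near 0. Of 6 genes with a probe set, none was past 2-fold, the median was -0.04 and 5 were within background on both arrays. The bradykinin receptors Bdkrb1 and Bdkrb2 had signals of 67.4 and 41.8 on the Ligation array, against 59.7 and 45.3 on the Sham array. Cpm, a carboxypeptidase that trims kinins, had a difference of 0.47 and was above background.

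The genes most like Mas1l in both log2 signals were looked up after its values were seen. Being picked by these signals, they have low differences through the choice, and nothing is read from their folds. They were Gyg1, which primes glycogen synthesis (3.86-fold lower), Pcp4l1 (3.66-fold lower) and the collagen prolyl hydroxylase P3h2 (4.73-fold lower). Next came Ppp1r12a, the targeting subunit of myosin phosphatase (3.08-fold lower), and the integrin Itga8 (2.92-fold lower).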
